A study of Mus musculus with 6 samples.

Results

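Genes of the primary cilium and of the transport system that builds it were followed in sorted cells of the mouse embryonic forebrain with 1 or both copies of Magoh. The members were chosen by name: 48 gene names were looked up in the table of raw counts, and 47 of them matched 1 gene each, out of 38561 genes in all. The remaining name, Ift22, was not matched because its Ensembl ID (ENSMUSG00000007987) stands in the table under the older symbol Rabl5. All 47 members passed the filter on low counts that left 16495 genes for testing. The members fall into 8 role groups of 2 to 12 genes.

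RNA was sequenced from tdTomato-positive cells sorted at E11.5 from the telencephalon of C57BL/6 mice. The 2 tested libraries came from embryos with the genotype Magoh lox/+; Nkx2.1-Cre; ROSAloxSTOPloxTdTomato, in which Cre recombinase can remove 1 Magoh allele. The 4 control libraries came from Nkx2.1-Cre; ROSAloxSTOPloxTdTomato embryos. Cre was driven by Nkx2.1, a marker of the medial ganglionic eminence (MGE), the zone of the ventral telencephalon that makes many cortical interneurons. Cre, the reporter and the sort were common to both groups. Magoh protein sits in the core of the exon junction complex, deposited on mRNAs as they are spliced. The labels do not say whether the libraries came from separate embryos, and the p-values therefore cover the spread among these 6 libraries, which may be technical.

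The primary cilium is a single, non-motile extension of the plasma membrane that grows from the mother centriole. Intraflagellar transport (IFT) carries cargo along its microtubules. The IFT-B complex is tied to outward movement with kinesin-2, and the IFT-A complex to return with dynein-2. The BBSome carries membrane proteins, and the transition zone at the base acts as a gate. In neural progenitors the cilium stands at the ventricular surface, and hedgehog signalling, which patterns the ventral forebrain, runs through it.

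Many ciliary genes of animals carry an X-box in their promoter, the sequence read by RFX transcription factors, and the members' promoters were therefore searched for it. RefSeq (GRCm38.p6) windows running 250 bases upstream and 50 bases downstream of the start site were at hand for 43 members, while Ift80, Ift81, Ift122 and Tmem67 had no entry. The motif, searched on both strands, was GTNNCC and GNAAC with any 3 bases between them. It was present for 10 of 43 members (23.3%), against 3.20% of the 11600 other tested genes with a window and 2.49% of all 27025 genes with one. A stricter form, with GTTNCC as its first part, was present for 4 members (9.30%), against 1.16% of the other tested genes and 0.936% of all genes. The half-site GTTGCC, which lies inside many X-box matches, was present for 20 members (46.5%), against 15.01% of the other tested genes and 14.1% of all genes. A match describes letters in a window and not a bound site, and the absence of a match says only that these letters are not there.

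The 10 matched X-boxes are shown because they are what these promoters share beyond their gene names. Each line gives 30 bases of the gene's own strand, 5′ to 3′, with the match in capitals. For Tctn2, Tmem231, Tmem216, Bbs1 and Ift57 the match is on the reverse strand. Their capitals are thus the reverse complement of the motif as written above, and none of them fits the stricter form.
Mks1, chr11:87853183-87853212, plus strand: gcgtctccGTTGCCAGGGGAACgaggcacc
Tctn1, chr5:122264411-122264440, minus strand: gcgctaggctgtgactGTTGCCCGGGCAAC
Tctn2, chr5:124598679-124598708, plus strand: gattggagGTTACCATGGCTACtggtcctc
B9d2, chr7:25680788-25680817, plus strand: aacctgctGTTGCCCCAGCAACagtcgggg
Tmem231, chr8:111933781-111933810, minus strand: cgccgtcgGTTGCCGTGGAGACtcggcgct
Tmem216, chr19:10555723-10555752, minus strand: tgtacgcaGTTTCCATGGGGACtgaacatg
Bbs1, chr19:4906605-4906634, minus strand: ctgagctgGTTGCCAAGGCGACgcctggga
Bbs4, chr9:59353464-59353493, minus strand: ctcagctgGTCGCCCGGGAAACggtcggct
Bbs7, chr3:36613489-36613518, minus strand: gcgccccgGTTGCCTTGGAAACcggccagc
Ift57, chr16:49699199-49699228, plus strand: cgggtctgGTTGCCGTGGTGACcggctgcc

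Transition zone genes held 6 of these 10 matches, 6 of 11 with a window. The BBSome group held 3 and the IFT-B group 1. The match at Mks1 lay close upstream of the start site, from base -24 to base -11. The 250 bases before the Mks1 start (chr11:87852965-87853214, plus strand, GRCm38.p6) are given with that match in capitals, as an example of its setting.
Mks1 upstream: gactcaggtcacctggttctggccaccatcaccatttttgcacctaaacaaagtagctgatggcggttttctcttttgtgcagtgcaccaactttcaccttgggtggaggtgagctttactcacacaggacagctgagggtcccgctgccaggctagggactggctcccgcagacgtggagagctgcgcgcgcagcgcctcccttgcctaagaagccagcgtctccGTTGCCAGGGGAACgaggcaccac

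Wdr90 had no match to either full form, but 2 half-sites, from base -154 to -149 on the reverse strand and from base -32 to -27 on the forward strand. Its upstream 250 bases (chr17:25861516-25861765, minus strand, GRCm38.p6) are shown with both half-sites in capitals, because its fitted fold change was the lowest of the members.
Wdr90 upstream: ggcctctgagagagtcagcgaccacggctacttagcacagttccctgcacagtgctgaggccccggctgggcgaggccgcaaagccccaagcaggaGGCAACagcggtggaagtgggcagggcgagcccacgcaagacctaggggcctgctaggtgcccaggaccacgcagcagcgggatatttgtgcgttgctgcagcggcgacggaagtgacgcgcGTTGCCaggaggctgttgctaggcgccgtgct

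Several facts of the whole series bear on these genes. Total counts were 41.95 and 49.2 M (M, counts in units of 1e+06) in the heterozygous libraries and 37.4 to 44.2 M in the controls. Magoh stood at 57.1 and 48.6 CPM (read counts scaled to library size with TMM factors, per 1e+06 counts) in the heterozygous libraries, against 68.1, 118, 63.6 and 74.3 CPM in controls 1 to 4, with no overlap. Its log2 fold change was -0.62 ± 0.27 (SE; edgeR's quasi-likelihood test, adjusted p = 0.85). Heterozygous library 1 and control 2 had 0 reads over 4 Y-linked genes (Ddx3y, Eif2s3y, Kdm5d, Uty), where the other libraries had 3453 to 4291. Across all 16495 genes edgeR called 0 at an adjusted p under 0.05 (0% of those tested), with a smallest adjusted p of 0.793, and 944 at an unadjusted p under 0.05 (5.72%). limma-voom called 0 as well, and DESeq2 called 61 of 17050 (0.358%), 56 of them lower in the heterozygous libraries. The cilium members had 44 to 5471 reads each in a library.

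Every member had reads in every library of both genotypes. Levels of different genes were compared per kilobase of merged exon. This length pools the exons of all annotated transcripts of a gene, so the ranking of genes and groups depends partly on the annotation. The group means of the members ran from 0.38 to 25.9 CPM per kb in the heterozygous libraries (median 4.04). In the controls they ran from 0.626 to 24.2 CPM per kb (median 4.55). Kifap3, the kinesin-2 adaptor, was the most abundant member in the heterozygous libraries at 25.9 ± 2.57 CPM per kb (SD, n = 2), against 22.1 ± 1.83 in the controls (SD, n = 4). Ift27, a GTPase-like IFT-B subunit, had the highest control level, at 23.8 ± 4.17 CPM per kb in the heterozygous libraries and 24.2 ± 5.92 in the controls. These 2 members did not differ from each other beyond their spread in either genotype. Cep290, a large transition zone scaffold, had the lowest mean, at 0.377 ± 0.235 CPM per kb in the heterozygous libraries and 0.626 ± 0.529 in the controls. By group medians in CPM per kb, motors led with 12.3 in the heterozygous libraries and 10.4 in the controls. Small GTPases followed at 7.01 and 9.70, and IFT-B genes at 6.26 and 7.46. BBSome genes had medians of 2.93 and 2.95, and transition zone genes 2.86 and 3.49.

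**Figure D1:**
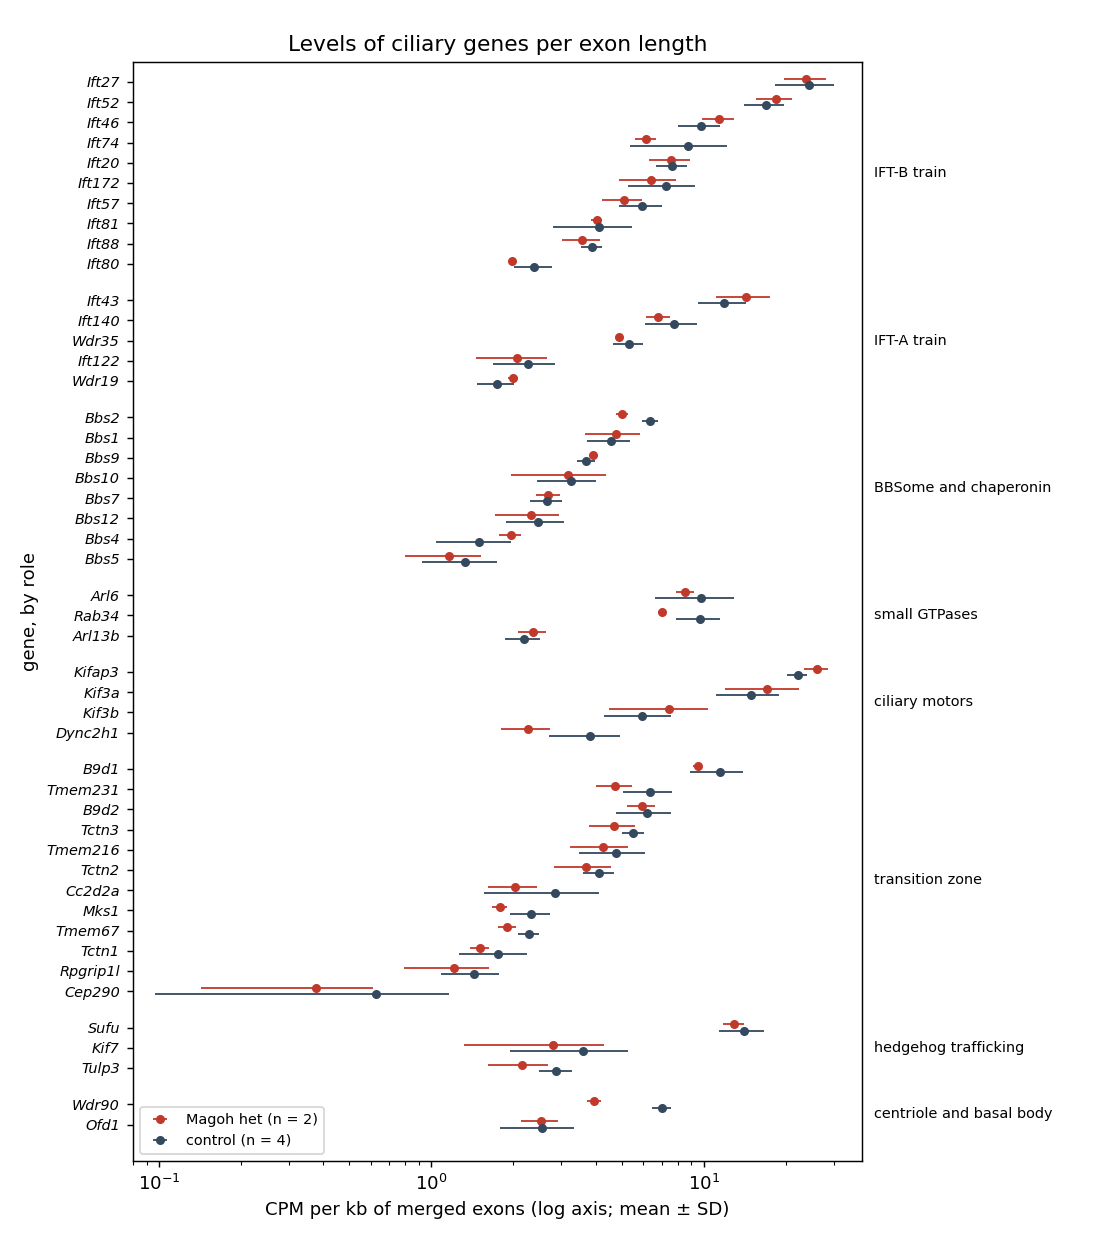
Mean level of each of the 47 cilium genes in CPM per kb of merged exons (log axis), with bars of ± 1 SD, for the Magoh heterozygous libraries (n = 2) above the control libraries (n = 4) in each row. Levels span 0.626 CPM per kb (Cep290) to 24.2 CPM per kb (Ift27) in controls, and for most genes the bars of the 2 genotypes overlap.

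No cilium gene passed the test between genotypes: edgeR called 0 of 47 members, as it called 0% of all tested genes. The fitted log2 fold change (heterozygous over control) was below 0 for 35 of 47 members, against 53.9% of all tested genes, and its median was -0.16, against -0.03 over all tested genes. An unadjusted p under 0.05 was reached by 2 members, Wdr90 and Dync2h1, both on the lower side and 0 on the higher side. Over all tested genes 5.72% reached it, 3.98% lower and 1.75% higher in the heterozygous libraries. Both heterozygous libraries lay below all 4 controls for 6 members (12.8%), against 8.14% of all tested genes. These were Ift80, Bbs2, Rab34, Mks1, Tmem67 and Wdr90. Wdr90 was listed because of its small p in an earlier analysis of these data, so it was bound to count here, and without it 5 of 46 members (10.9%) lay below all controls and 1 reached an unadjusted p under 0.05. Both lay above all controls for 0 members, against 6.17% of all tested genes. The SE of a member's log2 fold change had a median of 0.24, so a change of the size of the median could not be detected for a single gene. In bulk samples, fewer cells of a type and less RNA per cell cannot be told apart.

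**Figure D2:**
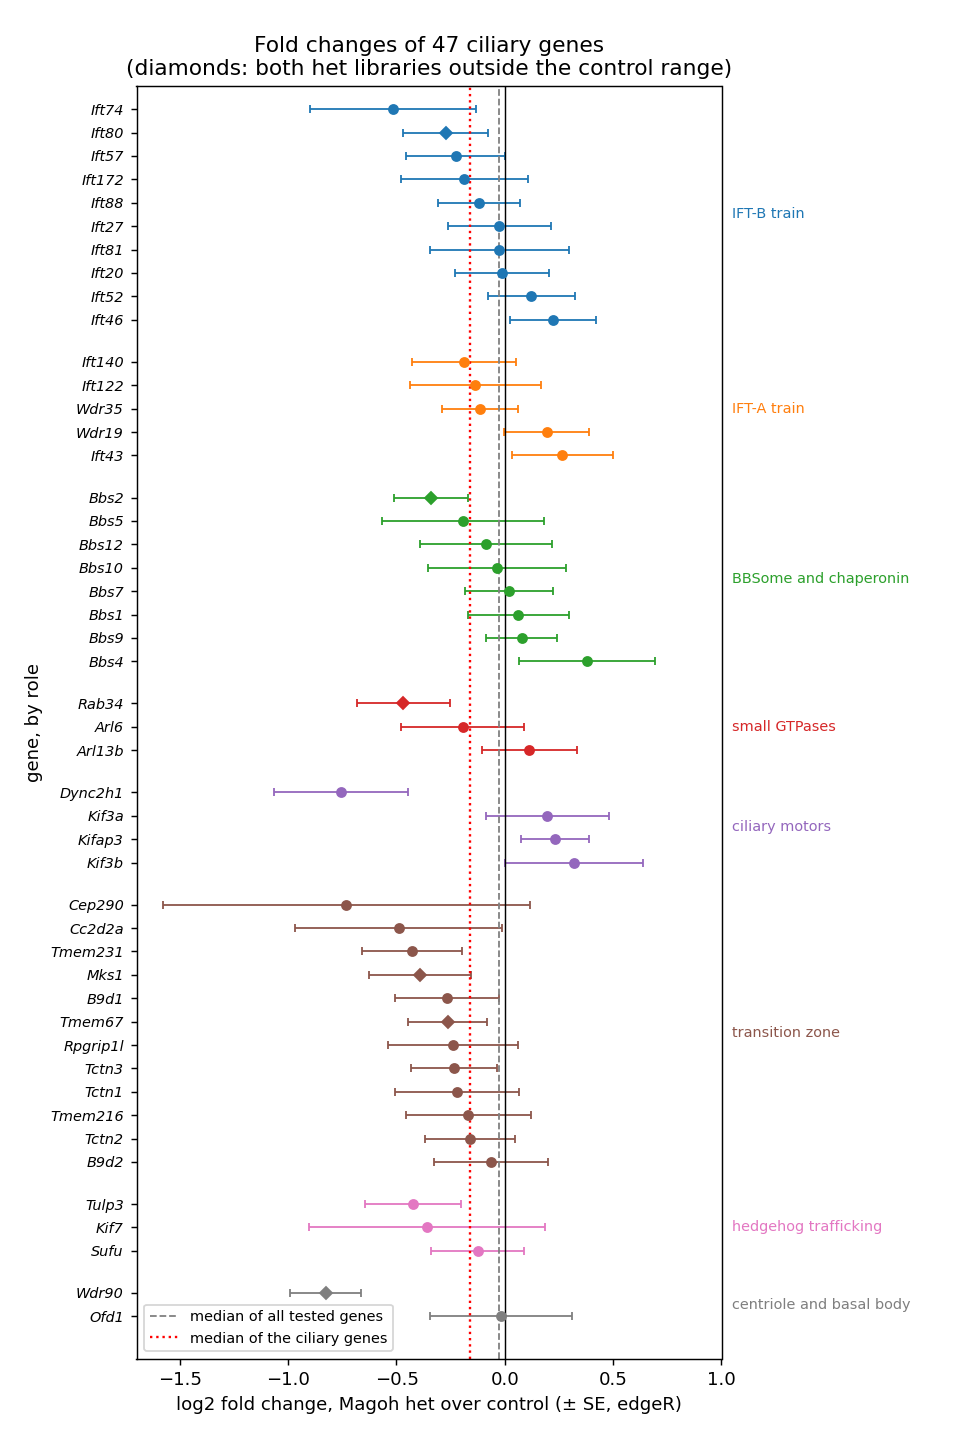
Log2 fold change of each cilium gene, Magoh heterozygous over control, with ± 1 SE from edgeR, ordered within role groups. The dashed line is the median of all tested genes (-0.03) and the dotted line that of the 47 cilium genes (-0.16), and diamonds mark the 6 genes whose heterozygous libraries both lie below the control range.

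Fitted values lay below 0 for 12 of 12 transition zone genes, with a median of -0.25 and a range of -0.73 to -0.06. The same held for the smaller group of hedgehog trafficking (3 of 3, median -0.36). The group of centriole and basal body (2 of 2, median -0.42) holds only Wdr90 and Ofd1. Wdr90 was listed for its small p in these data, and Ofd1 stood at -0.02 ± 0.33. That median therefore gives no support to a shared direction. None of the 12 passed the test, and 2, Mks1 and Tmem67, had both heterozygous libraries below all controls (8.14% of all tested genes did). Mks1 encodes a soluble protein of the B9 complex at the gate. It had 7.52 and 6.86 CPM in the heterozygous libraries, against 8.18, 9.49, 11.6 and 8.39 CPM in controls 1 to 4. Both heterozygous values were below the lowest control, though heterozygous library 1 lay close to control 1. The log2 fold change was -0.39 ± 0.24 (edgeR, adjusted p = 0.92).

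Tmem67 encodes meckelin, a membrane protein of the same complex. It had 15.5 and 13.9 CPM in the heterozygous libraries, against 15.6, 19.0, 18.5 and 17.6 CPM in controls 1 to 4. The groups did not overlap, but heterozygous library 1 and control 1 were nearly equal. The log2 fold change was -0.26 ± 0.18 (edgeR, adjusted p = 0.952). Tmem231, another transmembrane protein of the gate, had the smallest p of the group, with 28.1 and 22.7 CPM in the heterozygous libraries and 31.7, 26.1, 36.2 and 42.6 CPM in controls 1 to 4. Here control 2 fell between the heterozygous values, and the log2 fold change was -0.43 ± 0.23 (edgeR, adjusted p = 0.905).

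Cep290 and Cc2d2a, both large proteins of the transition zone, had the group's lowest fitted values and the widest scatter. Cep290 had 2.45 and 6.31 CPM in the heterozygous libraries, against 7.35, 1.22, 15.7 and 4.83 CPM in controls 1 to 4. Cc2d2a had 11.8 and 15.7 CPM in the heterozygous libraries, against 21.4, 6.82, 22.1 and 27.1 CPM. For both genes control 2 was the lowest of the 6 libraries, below both heterozygous ones. Their log2 fold changes were -0.73 ± 0.85 and -0.49 ± 0.48, each within about 1 SE of 0. The tectonic genes Tctn1, Tctn2 and Tctn3, the B9 genes B9d1 and B9d2, Rpgrip1l and Tmem216 had log2 fold changes between -0.27 (B9d1) and -0.06 (B9d2), with overlapping groups.

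The direction of the transition zone genes was not the same in every subset of libraries. Between the libraries with Y-linked reads (heterozygous library 2 and controls 1, 3 and 4), 10 of 12 differences were below 0, with a median of -0.34. Between those without such reads (heterozygous library 1 and control 2), 7 of 12 were below 0, with a median of -0.06. These differences of log2 CPM have no test, since 1 side or both had a single library. In 5 of 12 genes both differences were below 0, and in 0 of 12 both were above. Between the 2 libraries that share a number in their sample code (heterozygous library 2 and control 1), 9 of 12 differences were below 0, with a median of -0.20. Over all 16495 tested genes, 8665, 8316 and 8737 differences were below 0 in these comparisons, in the order given.

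**Figure D3:**
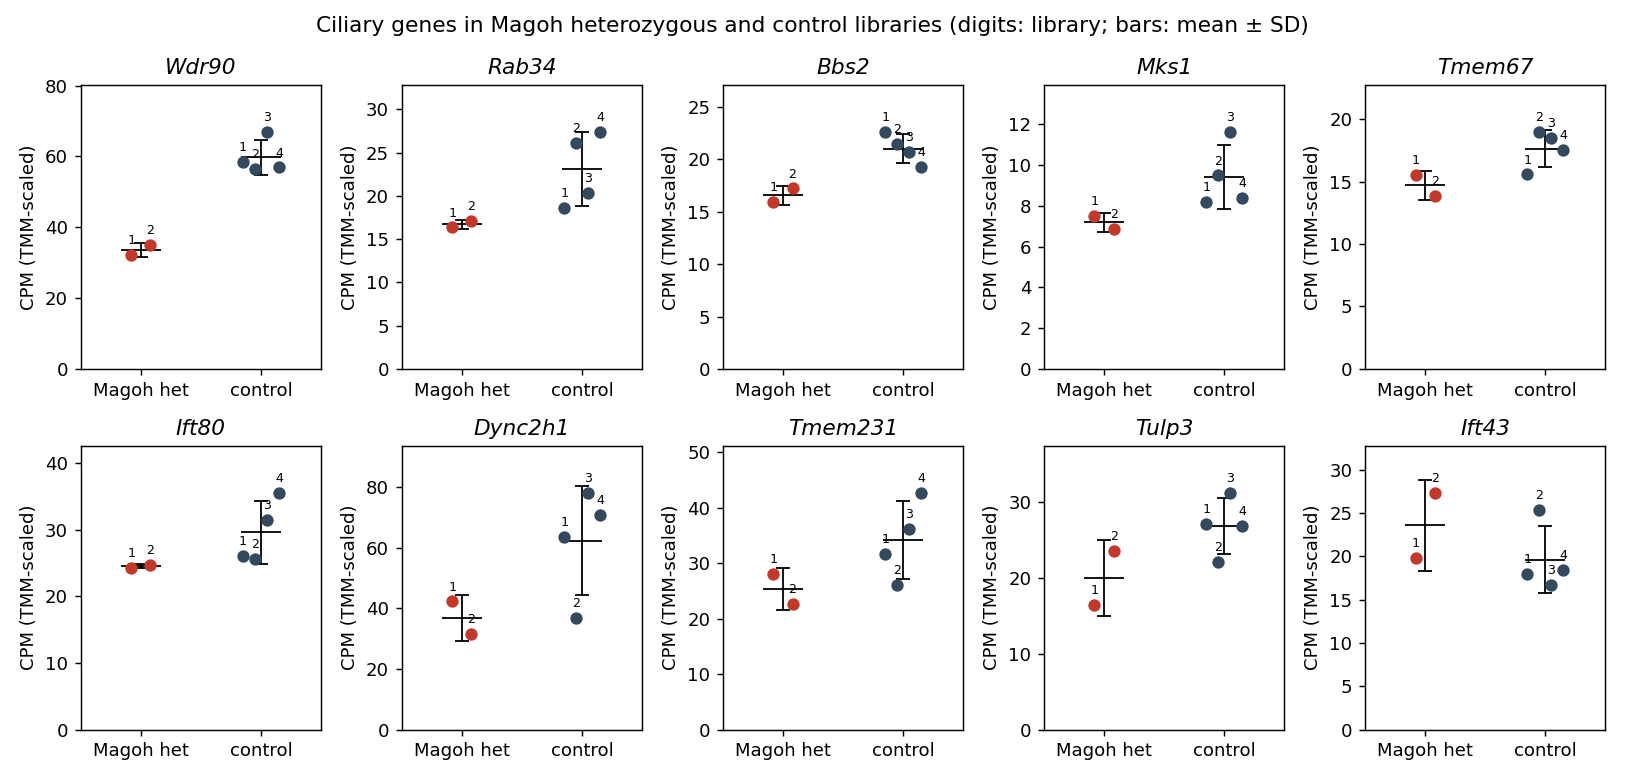
CPM of 10 cilium genes in each library (points numbered by replicate, Magoh heterozygous left, control right; horizontal bars, mean ± SD; linear axes from 0). The first 6 panels are the genes without overlap, led by Wdr90 with heterozygous values of 32.2 and 35.0 CPM and control values of 56.5 to 66.8 CPM, and the other panels show groups that overlap.

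Of the genes of centriole and basal body, Wdr90 encodes a centriolar protein (ENSMUSG00000073434, chr17:25844771-25861501, minus strand). It is a member because an earlier analysis of these data ranked it among the smallest p-values, so its values are a description and give no support to the direction of the other members. It had 32.2 and 35.0 CPM in the heterozygous libraries, against 58.5, 56.5, 66.8 and 56.9 CPM in controls 1 to 4. The groups were well apart, and control 2 lay with the other controls. The log2 fold change was -0.83 ± 0.16 (edgeR, rank 11 of 16495 genes, adjusted p = 0.793), and DESeq2 called it (adjusted p = 0.0152). Its log2 difference was -0.81 for heterozygous library 1 against control 2 and -0.79 for heterozygous library 2 against controls 1, 3 and 4. Without Wdr90, 34 of 46 members lay below 0, with a median of -0.15. Ofd1, which acts at the distal end of the centriole, had 10.02 and 12.49 CPM in the heterozygous libraries, against 12.97, 6.32, 13.99 and 12.2 CPM in controls 1 to 4, and the groups overlapped.

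The ciliary motors were split in direction. The 3 kinesin-2 subunits, which drive outward transport, had fitted values above 0. Kif3a had 48.2 and 74.4 CPM in the heterozygous libraries, against 63.2, 36.6, 66.2 and 48.0 CPM in controls 1 to 4, and its partner Kif3b at 30.1 and 53.4 CPM, against 42.2, 21.4, 39.0 and 31.4 CPM. In both genes heterozygous library 2 was the highest of the 6 and heterozygous library 1 lay within the controls. Kifap3 had 96.7 and 111 CPM in the heterozygous libraries, against 99.5, 83.9, 86.5 and 84.6 CPM in controls 1 to 4, where only control 1 exceeded a heterozygous value. The log2 fold changes were 0.20 ± 0.28, 0.32 ± 0.32 and 0.23 ± 0.16 for Kif3a, Kif3b and Kifap3, and all 3 were also above 0 in both subsets of libraries split by Y-linked reads. None reached an unadjusted p under 0.05 in edgeR.

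Dync2h1, the heavy chain of the dynein-2 motor that returns IFT trains, lay in the other direction. It had 42.3 and 31.5 CPM in the heterozygous libraries, against 63.5, 36.8, 77.9 and 70.7 CPM in controls 1 to 4. Control 2 fell between the heterozygous values and the other controls were higher than both. The log2 fold change was -0.75 ± 0.31 (edgeR, adjusted p = 0.85). It rested on the libraries with Y-linked reads, where the log2 difference was -1.16, while heterozygous library 1 was 0.20 above control 2.

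Of the small GTPases, Rab34, which acts early in cilium formation at the ciliary vesicle, had groups that did not overlap. It had 16.4 and 17.1 CPM in the heterozygous libraries, against 18.7, 26.1, 20.4 and 27.4 CPM in controls 1 to 4. Controls 1 and 3 were close to the heterozygous values and controls 2 and 4 well above them. The log2 fold change was -0.47 ± 0.22 (edgeR, adjusted p = 0.85). Arl6, which recruits the BBSome to membranes, had 18.9 and 17.0 CPM in the heterozygous libraries, against 17.3, 30.3, 15.98 and 18.4 CPM in controls 1 to 4, where control 2 alone stood apart. Arl13b, a GTPase of the ciliary membrane, had 11.01 and 12.96 CPM in the heterozygous libraries, against 8.70 to 12.2 CPM in the controls, and the groups overlapped.

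Hedgehog trafficking was represented by Kif7, a kinesin of the ciliary tip, Tulp3, an adaptor that brings receptors into the cilium, and Sufu, which holds Gli proteins inactive. All 3 fitted values were below 0, with a median of -0.36. Tulp3 had 16.5 and 23.6 CPM in the heterozygous libraries, against 27.1, 22.2, 31.2 and 26.9 CPM in controls 1 to 4, and only control 2 fell between the heterozygous values. Its log2 fold change was -0.42 ± 0.22 (edgeR, adjusted p = 0.897). Kif7 had 8.04 and 17.7 CPM in the heterozygous libraries, against 18.6, 5.48, 22.7 and 19.1 CPM, and Sufu at 92.6 and 105 CPM, against 118, 77.4, 116 and 120 CPM. Control 2 was the lowest library for both genes, and the groups overlapped.

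The IFT-B group had 8 of 10 fitted values below 0, with a median of -0.07. Ift80, a peripheral subunit, had 24.3 and 24.8 CPM in the heterozygous libraries, against 26.0, 25.6, 31.5 and 35.5 CPM in controls 1 to 4. The groups did not overlap, but controls 1 and 2 were within 2 CPM of the heterozygous libraries, and the log2 fold change was -0.27 ± 0.19 (edgeR, adjusted p = 0.961). Ift74, which with Ift81 binds tubulin, had the group's lowest fitted value, -0.52 ± 0.38, with 15.3 and 17.4 CPM in the heterozygous libraries and 22.7, 11.1, 32.6 and 26.8 CPM in the controls. Ift88 and Ift52, core subunits needed to build cilia, had log2 fold changes of -0.12 ± 0.19 and 0.12 ± 0.20. Ift20, Ift27, Ift46, Ift57, Ift81 and Ift172 had values from -0.23 (Ift57) to 0.22 (Ift46) and overlapping groups. Ift22, found by its ID under Rabl5, had 23.4 and 25.4 CPM in the heterozygous libraries, against 23.5 to 31.4 CPM in the controls.

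The IFT-A group had 3 of 5 fitted values below 0, with a median of -0.11. Ift43, a small subunit, had the smallest p of the group and a fitted value above 0, with 19.8 and 27.3 CPM in the heterozygous libraries and 18.0, 25.3, 16.7 and 18.5 CPM in controls 1 to 4. Control 2 lay between the heterozygous values and the other controls below both. The log2 fold change was 0.27 ± 0.23 (edgeR, adjusted p = 0.99). Wdr19 had 21.8 and 23.1 CPM in the heterozygous libraries, against 16.1 to 23.6 CPM in the controls, and Ift122, Ift140 and Wdr35 had log2 fold changes from -0.19 (Ift140) to -0.11 (Wdr35).

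The BBSome and its chaperonin-like partners were split, with 4 of 8 fitted values below 0 and a median of -0.01. Bbs2, a core BBSome subunit, was the exception in that its groups did not overlap. It had 15.96 and 17.2 CPM in the heterozygous libraries, against 22.6, 21.5, 20.7 and 19.3 CPM in controls 1 to 4. All 4 controls were close together and above both heterozygous libraries, and the log2 fold change was -0.34 ± 0.17 (edgeR, adjusted p = 0.877). Bbs4 had the highest fitted value of all members, 0.38 ± 0.31, with 11.01 and 12.6 CPM in the heterozygous libraries and 9.36, 5.26, 11.9 and 9.67 CPM in the controls. Bbs1, Bbs5, Bbs7 and Bbs9 and the chaperonin-like Bbs10 and Bbs12 had values from -0.19 (Bbs5) to 0.08 (Bbs9).

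**Figure D4:**
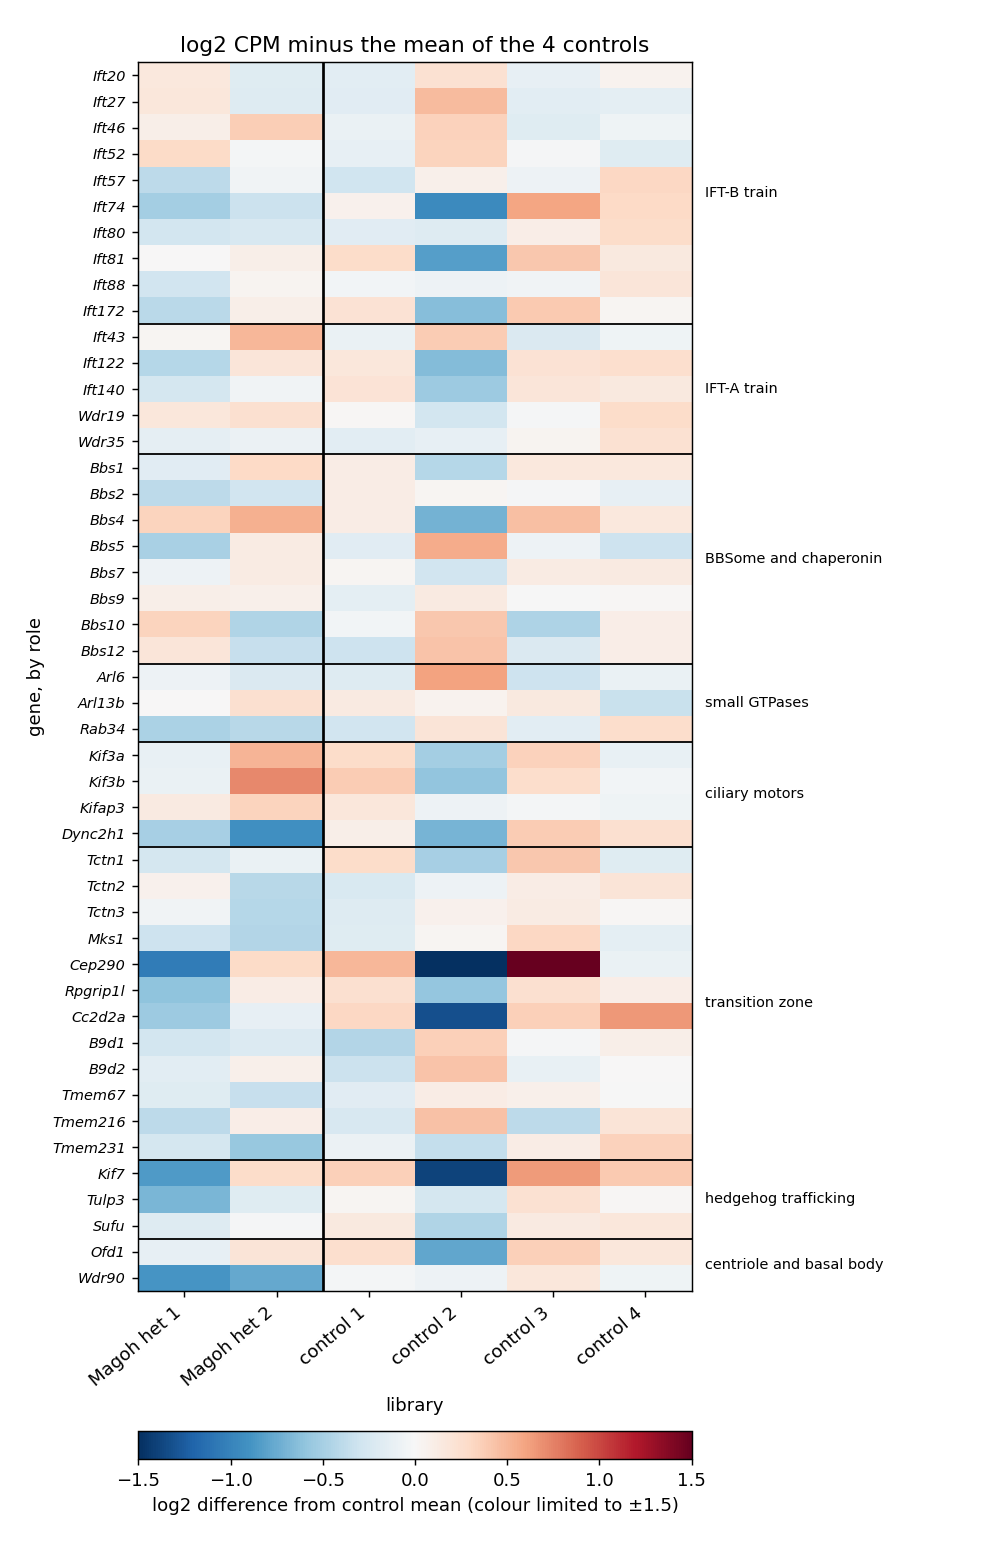
Log2 CPM of each cilium gene in each library minus the mean of the 4 controls, by role group, with the Magoh heterozygous libraries left of the vertical line (blue, lower; red, higher; colour limited to ± 1.5). Control 2 departs from the other controls in many rows, and it is the lowest of the 4 controls for 25 of 47 genes and the highest for 14.

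Much of the spread within a genotype came from control 2. It was the lowest of the 6 libraries for 18 members and the highest for 12. Heterozygous library 1 was the lowest for 10 members and the highest for 0, and heterozygous library 2 was the lowest for 9 and the highest for 8. The control coefficient of variation had a median of 20.5% over the 47 members (range 6.56% to 84.5%), and of 10.8% without control 2.

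The departures varied with the merged exon length of the genes. With the members split at 5372 nt of merged exon, the 23 longer ones were compared with the 24 shorter ones by their median deviation from the mean of the 6 libraries, in log2 CPM. Longer members stood -0.05 and 0.15 relative to shorter ones in heterozygous libraries 1 and 2, against 0.30, -0.64, 0.25 and 0.08 in controls 1 to 4. The fitted log2 fold change was below 0 for 16 of 23 longer members (median -0.16) and 19 of 24 shorter ones (median -0.14). Across the 47 members, Pearson's r of the deviation with log2 length was -0.32 and 0.04 in heterozygous libraries 1 and 2. It was 0.58, -0.55, 0.49 and 0.28 in controls 1 to 4. Over the 16266 tested genes with a length, r was -0.10 and 0.08 in heterozygous libraries 1 and 2. In controls 1 to 4 it was 0.17, -0.29, 0.16 and 0.07. These correlations are over genes measured in the same 6 libraries, so the genes are not independent values, and they describe those libraries only. Control 2 and heterozygous library 1, which have the negative values, are also the libraries without Y-linked reads. The comparison was therefore repeated within libraries alike in Y-linked reads and with the length trend taken out.

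**Figure D5:**
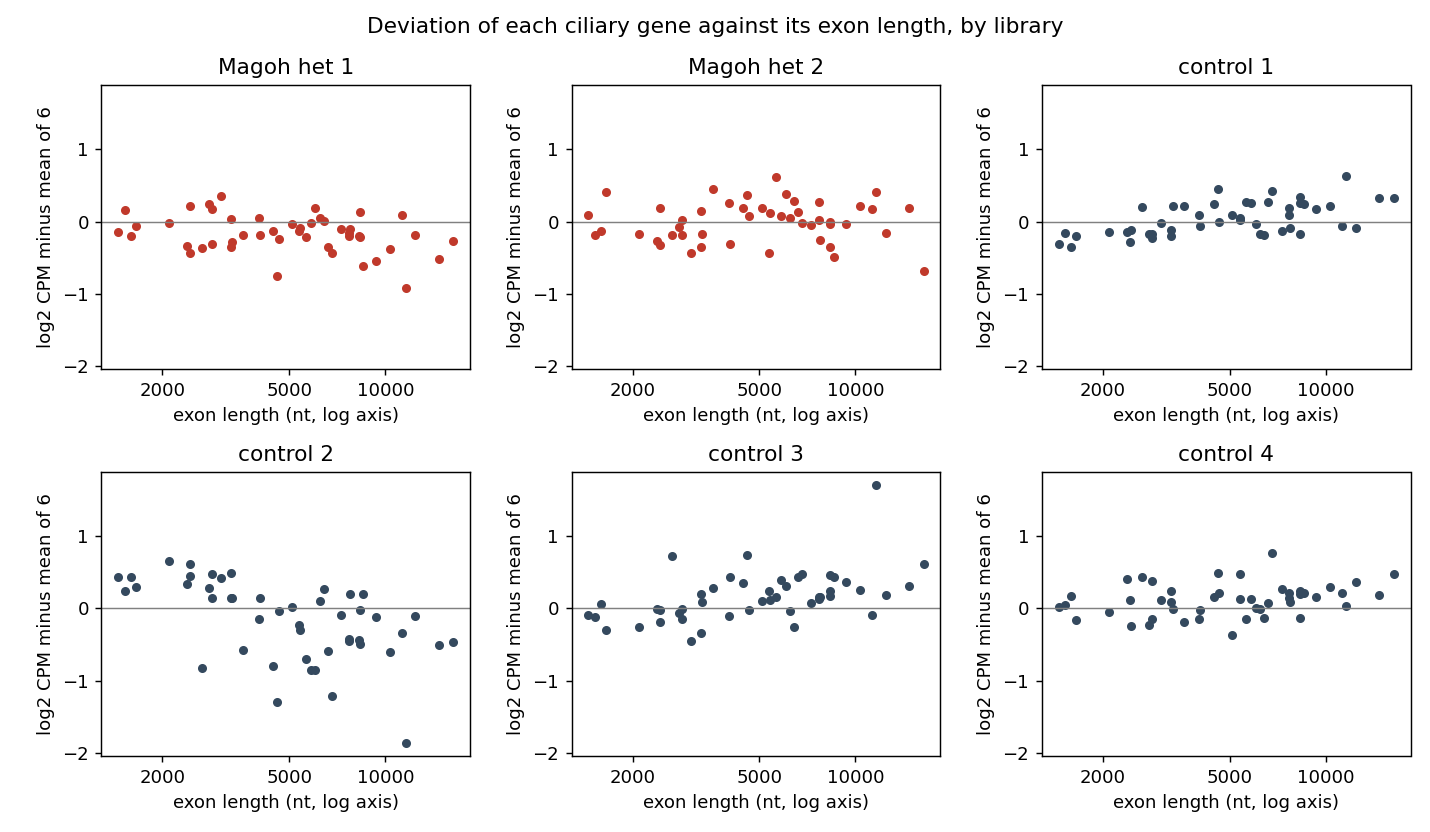
Deviation of each cilium gene from its mean over the 6 libraries (log2 CPM) against merged exon length (nt, log axis), with a panel for each library. Long genes lie low in control 2 (Pearson's r = -0.55 over 47 genes) and in Magoh heterozygous library 1 (r = -0.32), and high in controls 1 (r = 0.58) and 3 (r = 0.49).

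In heterozygous library 1 against control 2, 26 of 47 members were below 0 (median -0.04), against 8316 of 16495 tested genes (median -0.004). In heterozygous library 2 against controls 1, 3 and 4, 31 were below 0 (median -0.11), against 8665 of 16495 tested genes (median -0.03). In heterozygous library 2 against control 1, which share a code number, 27 were below 0 (median -0.04, against -0.03 over all tested genes). Both differences were below 0 for 17 members, against 4434 of 16495 tested genes, and both were above 0 for 7, against 3948 of all tested genes. The lower position of the members varied with the libraries left out. In the edgeR fit without heterozygous library 1, which keeps control 2, their median was -0.06. The median of all tested genes was also -0.06 there, and 23 of 47 members lay below that of all genes. Without both libraries lacking Y-linked reads, the median of the members was -0.10, against -0.04 over all tested genes.

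After removal of the trends with exon length and GC content within each library, 23 of 47 members were below 0 and their median was 0.00, while the median of all genes moved by 0.11 to 0.09. Relative to that median, the members stood at -0.08, against -0.13 without the removal, and 33 of 47 lay below it, against 31 without the removal. Of the transition zone genes 12 of 12 lay below the all-gene median after the removal, and 11 of 12 below 0.

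Fitted values below 0 were found with and without an X-box. Of the 10 with a match 7 were below 0, with a median of -0.16, and of the 33 without one 24 were below 0, with a median of -0.12. The 6 transition zone genes with a match had a median of -0.19 and the 5 without one -0.27. Among the RFX and FOXJ1 transcription factor genes, 6 of 7 fitted values were below 0, with a median of -0.33, and 0 of 7 passed the test. Rfx2 had 10.7 and 11.05 CPM in the heterozygous libraries, against 19.9, 11.1, 17.9 and 19.4 CPM in controls 1 to 4, with control 2 barely above the heterozygous values. Its log2 fold change was -0.65 ± 0.27 (edgeR, adjusted p = 0.85). The log2 difference was -0.05 for heterozygous library 1 against control 2 and -0.78 for heterozygous library 2 against the other controls. Rfx5 had a fitted value of -0.68 ± 0.35, with overlapping groups.

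The other genes of the cilium gave the background to the members. In the 8 further lists (104 genes, 101 tested), edgeR called 0 in either direction, 65 of 101 fitted values were below 0, and the median was -0.07. Other IFT and dynein-2 subunits had 5 of 12 below 0 (median 0.06), where Ttc30a1, an IFT-B subunit, stood at -0.32 ± 0.23 and Ttc21b, an IFT-A subunit, at -0.42 ± 0.34. Other BBSome and Bardet-Biedl genes had 3 of 5 below 0 (median -0.04), where Mkks, a chaperonin-like protein, stood at -0.40 ± 0.30 and Trim32, a ubiquitin ligase, at 0.11 ± 0.17. Genes of centriole and distal appendage had 14 of 19 below 0 (median -0.07), where Cep164, a distal appendage protein, stood at -0.66 ± 0.53 and Fam161a, a centriolar protein, at 0.60 ± 0.51. Ciliary membrane cargo and carriers had 10 of 19 below 0 (median 0.00), where Evc2, a hedgehog co-effector at the ciliary base, stood at -0.57 ± 0.28 and its partner Efcab7 at 0.79 ± 0.59. Motile cilium genes, which a primary cilium does not need, had 10 of 16 below 0 (median -0.16). Both heterozygous libraries lay below all controls for 2 of these and above all controls for 2 (8.14% and 6.17% of all tested genes). The highest fitted value of the list was 2.11. Dnaic1 and Ccno, named for the smallest p of the list, had 0 reads in both heterozygous libraries and at most 0.501 and 1.23 CPM in the controls.

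Further transition zone and nephronophthisis genes, which were no members, had 13 of 19 fitted values below 0, with a median of -0.11. In 2 of them both heterozygous libraries lay below all controls (8.14% of all tested genes). Intu, a planar polarity effector that acts at the basal body, had 29.1 and 22.3 CPM in the heterozygous libraries, against 30.7, 31.6, 39.3 and 35.5 CPM in controls 1 to 4. Its log2 fold change was -0.42 ± 0.19 (edgeR, adjusted p = 0.85). Invs, which defines the compartment beyond the gate, averaged 6.91 ± 0.131 CPM in the heterozygous libraries (SD, n = 2), against 9.83 ± 1.81 CPM in the controls (SD, n = 4), where control 2 was the lowest at 7.43 CPM. It had a log2 fold change of -0.51 ± 0.25 (edgeR, adjusted p = 0.869).

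The hedgehog target genes, which report the activity of the pathway that runs through the cilium, had 4 of 4 fitted values below 0, with a median of -0.49, and 0 of 4 passed the test. Hhip, a hedgehog-binding antagonist, had 5.49 and 6.33 CPM in the heterozygous libraries, against 9.70, 7.76, 9.72 and 16.4 CPM in controls 1 to 4. Both heterozygous libraries were below the controls, and the log2 fold change was -0.88 ± 0.33 (edgeR, adjusted p = 0.85). Gli1, the transcriptional activator and target of the pathway, had 6.88 and 9.80 CPM in the heterozygous libraries, against 14.2, 8.82, 13.9 and 16.3 CPM, and its groups overlapped through control 2. Its log2 fold change was -0.67 ± 0.30 (edgeR, adjusted p = 0.85). Ptch1, the receptor, was far more highly counted and lay closer together, with 250 and 231 CPM in the heterozygous libraries and 269, 234, 293 and 296 CPM in the controls.

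Among the neural lists of cell type markers, only the pan-neuronal one had summed levels that did not overlap between the 2 genotypes. The 10 pan-neuronal markers (Tubb3, Dcx and others) all had fitted values above 0, with a median of 0.61. In 7 of 10 both heterozygous libraries lay above all controls, against 6.17% of all tested genes. Their summed level was 3532 and 4189 CPM in the heterozygous libraries and 2045 to 2995 CPM in the controls. The 8 neural progenitor markers had 5 values below 0 and 3 above, up to 0.57 (median -0.23). Their summed level was 2993 and 3456 CPM in the heterozygous libraries and 3005 to 4343 CPM in the controls. Of these 8 markers, Slc1a3 and Prom1 had both heterozygous libraries below all controls (8.14% of all tested genes did). The 6 MGE lineage markers, among them Nkx2-1 (349 and 466 CPM in the heterozygous libraries, 339 to 561 CPM in the controls), had 5 values above 0 (median 0.56). Their summed level was 1248 and 2118 CPM in the heterozygous libraries and 824 to 1503 CPM in the controls. None of these 24 genes passed the test, and the part of cell type balance in the ciliary values was not tested.

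Markers of other cells were low or uneven. The blood and microglia markers (7 listed, 5 tested, 3 below 0) summed to 144 and 0.061 CPM in the heterozygous libraries, against 12.8 to 94.1 CPM in the controls. Ptprc and Aif1 were at 0 in both heterozygous libraries. The endothelial and pericyte markers (7 listed, 6 tested, 5 below 0) summed to 21.7 and 15.2 CPM in the heterozygous libraries and 11.46 to 39.0 CPM in the controls, with Cldn5 and Rgs5 at 0 in both heterozygous libraries and in control 2. The mesenchyme markers (5 of 6 below 0) summed to 159 and 64.4 CPM in the heterozygous libraries and 96.3 to 167 CPM in the controls. The surface ectoderm and epithelium markers (3 of 6 below 0) summed to 11.46 and 5.31 CPM in the heterozygous libraries and 9.38 to 15.9 CPM in the controls.

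Exons of other genes overlapped those of 12 members, on either strand, in GENCODE M21. More than 10% of the exonic bases were shared for 2 of them, Tctn1 (25.5%, mainly with Hvcn1) and Kif7 (20.3%, mainly with 9330171B17Rik), both on the opposite strand. How reads over shared exons were counted is not stated in the labels, so the reads of these 2 genes cannot be assigned with certainty.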

How the data were processed

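Per the labels' protocols, tdTomato-positive E11.5 telencephalic cells were sorted, RNA was purified and mRNA libraries were made with a NuGEN kit. The tools named per the submitters' processing notes are HTSeq, STAR and Trim Galore, with the build mm10. The annotation, strandedness, counting settings and tool versions are not stated in the labels. The authors deposited raw read counts for 38561 genes, with 0 rows that name no gene, and a normalized signal (counts divided by a size factor per library) for 18065 genes. Every column carried a sample code, with 0 left unmatched.

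The raw counts were tested with edgeR 4.0.16 in R 4.3.3 (filterByExpr, TMM, glmQLFit with robust fitting, glmQLFTest, two-sided, Benjamini-Hochberg over all 16495 tested genes, threshold 0.05). Each SE was taken as the size of the log2 fold change over the root of its F statistic. Total counts were 37.4 to 49.2 M, and a count of 0 allows up to 3 counts in a library, counting error only. With 2 against 4 libraries an exact two-sided permutation test of a single value cannot go below 0.0667. List counts and medians have no test.

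Alternatives were DESeq2 1.42.0, limma-voom and limma-trend (limma 3.58.1; log2 of the deposited normalized signal plus 1), upper-quartile or RLE scaling, a filter at a mean of 1 CPM or none, non-robust edgeR fitting, Y-linked reads as a covariate, length and GC trends removed (loess, span 0.5), and libraries left out. The sample code number as a block was added after seeing the data. Exon length and GC came from GENCODE M21 (GRCm38), which matched 36723 gene IDs and 98.6% of tested genes. Promoters came from RefSeq (GRCm38.p6). The scripts were checked on simulated data.

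The members and lists were chosen with earlier results of these data known. Magoh is always named. Fold changes with p are given for members whose groups do not overlap and for the member of each role group with the smallest p, and of each other list for at most 2 genes by smallest p. Further members and Ptch1 were named after their values were seen.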

Additional observations from a re-analysis of the deposited data

Results flagged for a closer look

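In 7 of 47 cilium genes 1 control stood far from the other 3, by the ratio of its gap to the whole range of the 4 controls (Dixon's ratio, past its 95% critical value). Chance gives such a ratio in about 1 in 20 groups of values, and groups of genes from the same library are not independent. No share over all tested genes is given, so the count cannot be read as particular to cilium genes. Control 2 was the distant library in 5 of the 7.

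Control 2 was the highest control for Ift27, at 94.8 CPM against 60.3 to 61.2 CPM in the others (ratio 0.975). It was the lowest for Ift122, at 14.4 CPM against 25.5 to 27.1 CPM (0.877), and for Ift140, at 43.4 CPM against 70.2 to 73.0 CPM (0.906). It was also the lowest for Bbs1, at 25.5 CPM against 37.3 to 38.5 CPM (0.910), and for Sufu, at 77.4 CPM against 116 to 120 CPM (0.912). Control 4 was the highest for Ift88, at 20.3 CPM against 17.0 to 17.4 CPM (0.889). Control 1 was the highest for Kifap3, at 99.5 CPM against 83.9 to 86.5 CPM (0.830).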

How the results depend on the processing

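Over 18 alternatives, 27 named genes gave 483 values, of which 481 kept their direction and side of the threshold. The exceptions were Ttc30a1, at 0.043 with the replicate block described last, and Wdr90, called by DESeq2. The Wdr90 log2 fold change ran from -0.89 to -0.70. DESeq2 called 61 genes and 1 member, against 0 and 0 with edgeR, and the cause was not tested. Removing length and GC trends left 23 members below 0, with a median of 0.0044. Both heterozygous libraries then lay above all controls for 2 members (11.8% of all tested genes) and below them for 4 (6.52%). With upper-quartile scaling both lay above all controls for 1 member (5.86% of all tested genes). The cause was not tested. With Y-linked reads as a covariate 28 members lay below 0, with a median of -0.08 (-0.03 over all genes). Without both libraries lacking Y-linked reads, which leaves 1 heterozygous library against 3, 20 members lay below and 12 above all controls (34.3% and 31.3% of all tested genes).

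Leaving out 1 library at a time gave 0 called genes and 0 called members, 26 to 35 members below 0, medians of -0.20 to -0.057, 6 to 14 members below all controls and 0 to 8 above. Without control 2, 14 members lay below and 4 above (18.7% and 16.7% of all tested genes). Without heterozygous library 1, 13 lay below and 8 above (22.2% and 20.8%), and the median of -0.06 was 0.0054 above that of all genes, with 23 of 47 below the all-gene median, against 31 with all libraries. Without heterozygous library 2, 12 lay below and 0 above (18.4% and 17.6%). A lone library is assumed to vary like the other group. Fewer libraries make it easier for groups not to overlap.

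A fit with the sample code number as a replicate block was chosen after seeing the data. The groups share 1 number, so genotype rests on heterozygous library 2 and control 1, with 1 residual degree of freedom, and the labels do not say that the number pairs samples. It called 11 genes and 0 members (0 at an unadjusted p under 0.05), with 27 members below 0 and a median of -0.039, against -0.03 over all genes. The cause was not tested.

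Members had 44 to 5471 reads in a library. Motile cilium genes and markers near 3 counts were limited by depth.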
